A study of Mus musculus with 6 samples.

Results

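The genes described here carry the Wnt signal from Dishevelled to the TCF factors in the nucleus, or hold it back from outside or inside the cell. They were chosen by name: 43 genes were listed as beta-catenin transducers or Wnt antagonists, and every probe set paired with exactly 1 of these symbols was taken. Of the 43 genes, 42 had such a probe set, 113 probe sets in all, and Kremen2 had none in the probe table used here. Probe sets whose mean over the arrays lay under the 25th percentile of all probe sets, a log2 value of 3.62, were left out of the tests, which left 96 probe sets of 36 members among 14885 tested genes. The study silenced mrhl, a long noncoding RNA of the mouse testis, in GC1-Spg cells, a mouse line of spermatogonial origin. The control cultures received 100 nM scrambled siRNA, the others 100 nM siRNA against mrhl, and RNA was taken after 44 h in both. Each group held 3 replicates that the labels call biological, each on an Affymetrix array of its own, and untransfected cells were not analysed here. All cultures were of the same line, which is a limit of the model, and the labels do not say how cultures were separated, so the tests measure the spread between these cultures.

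In the canonical Wnt pathway, a kinase complex built on Axin and Apc marks beta-catenin for destruction, and a Wnt ligand at the cell surface recruits Dishevelled, which stops that complex. Beta-catenin then builds up, enters the nucleus and joins TCF factors, which otherwise hold target genes down together with Groucho corepressors of the Tle family. Secreted antagonists bind the ligands or their receptors, and intracellular antagonists bind Dishevelled or beta-catenin. In the testis, Wnt signals act on spermatogonia and on the supporting somatic cells, and mrhl has been described as a partner of the RNA helicase Ddx5 that restrains this pathway. Much of the pathway is controlled at the level of protein stability, phosphorylation and location, which an array of RNA does not read.

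TCF factors read a short DNA core, CTTTGA, shown here because it is the letter code at which the pathway's output is written. It was searched on both strands in the 250 bases before each RefSeq gene start (build GRCm38.p6), and 29 of the 43 members had such a promoter in the table used. Of these 29, 3 held the core (10.3%), against 15.8% of 27025 genes. The stretches around the matches, written 5′ to 3′ on the gene's strand, carry the core in capitals, and each reads TCAAAG because the core lay on the opposite strand.
Gsk3a, chr7:25237973-25238038, minus strand: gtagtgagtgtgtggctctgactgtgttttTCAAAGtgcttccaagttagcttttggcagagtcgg
Gsk3b, chr16:38088894-38088959, plus strand: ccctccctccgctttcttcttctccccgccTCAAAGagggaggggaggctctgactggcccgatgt
Frzb, chr2:80447456-80447521, minus strand: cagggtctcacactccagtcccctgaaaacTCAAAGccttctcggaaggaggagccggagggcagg
These letters describe the promoter windows only, and no binding was measured in these cells.

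All values are deposited log2 expression values, in which a step of 1 is a 2-fold difference, and differences are given as mrhl siRNA minus scrambled siRNA. The array medians differed by at most 0.11, and the arrays correlated at 0.97 to 0.9895. Equal replicate numbers were read as pairs, because deviations from the group means correlated at 0.201 to 0.567 between arrays of the same number. The silenced RNA could not be checked, since no probe set was paired with mrhl. Of 12 germ cell markers 7 were tested, and Ddx4 and Dazl, which mark germ cells, lay under the filter; the mean of the 7 ran from 4.63 to 5.18 in the control arrays and from 4.67 to 5.07 after mrhl siRNA. Uchl1 stood highest of these 7, at 7.49 in the control cells. The 7 tested Sertoli cell markers ran from 3.65 for Cldn11 to 10.69 for Wt1 in the control cells. Of the peritubular and fibroblast markers, Col1a1 and Vim stood highest in the control cells, at 12.19 and 12.92. Myh11 stood lowest of those tested, at 3.47, and Pdgfrb lay under the filter. All 6 tested peritubular and fibroblast markers had positive differences, none of which passed (limma, adjusted p of 0.965 or more), and their mean log2 value ran from 9.62 to 10.22 in the control arrays and from 10.06 to 10.19 after mrhl siRNA. Their part in the values below was not tested. In cultures measured in bulk, fewer cells of a type and less RNA per cell cannot be told apart.

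None of the 36 tested members passed the test in either direction (limma, adjusted p of 0.965 or more for each), and neither did any of the 14885 genes (0%). Of the 36, 22 had positive and 14 negative differences, with a median of 0.07, against a median of -0.04 and 42.1% positive over all tested genes. The lean to positive values depended on which arrays were kept: without both arrays of number 1 the median was -0.01, with 17 positive and 19 negative. Without scrambled siRNA replicate 2 it was -0.01, and without mrhl siRNA replicate 1 it was -0.03. Without mrhl siRNA replicates 2 and 3 in turn it was 0.12 for each. Without scrambled siRNA replicates 1 and 3 in turn it was 0.03 and 0.06. Over all tested genes the median with arrays left out ran from -0.05 to -0.02, under the member median in each of these settings. Differences of at least 2-fold lay outside the 95% interval for 32 of the 36 members, and the other 4 were Frzb, Tcf7l2, Apcdd1 and Sfrp2. The number of arrays limits the precision, and the median standard error over the members was 0.181, or 0.128 with the replicate number as a block.

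At an unadjusted p under 0.05, limma counted 2 members, Kremen1 and Cxxc4, both higher, where 0.86% of all tested genes were counted higher and 1.98% lower. With the replicate block that count was 6, of which 5 were higher (Kremen1, Cxxc4, Frzb, Tcf7l2 and Bcl9l) and 1, Apcdd1, was lower, beside 3.14% and 5.89% of all tested genes, and none of the 6 passed the adjustment (limma, adjusted p = 0.487 for each). Without the block, the count of 2 was 0 without scrambled siRNA replicate 3 or mrhl siRNA replicate 2, 1 without mrhl siRNA replicate 1 and 4 without mrhl siRNA replicate 3. In that order the share of all tested genes counted, 2.84% with every array, was 1.95%, 1.7%, 2.17% and 6.49%. The groups did not overlap in 5 members: Dvl2, Kremen1, Cxxc4 and Cxxc5 were higher in every mrhl array, where 2.3% of all tested genes were, and Sfrp1 was lower, where 6.13% were. Without scrambled siRNA replicate 1 the 5 became 12, and without mrhl siRNA replicates 2 and 3 in turn 9 and 14; over all tested genes the share that did not overlap was then 26.7%, 12.9% and 28.1%, against 8.44%. When the tested probe sets of a gene were averaged the count was again 5, where 8.28% of all tested genes did not overlap. Dvl2 alone was shared, and the others were Ctnnbip1, Frzb and Tcf7l2 on the higher side and Ctnnb1 on the lower side. In 9 members all 3 pairs were higher (14.5% of all tested genes) and in 9 all 3 were lower (26.1% of all tested genes).

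**Figure D1:**
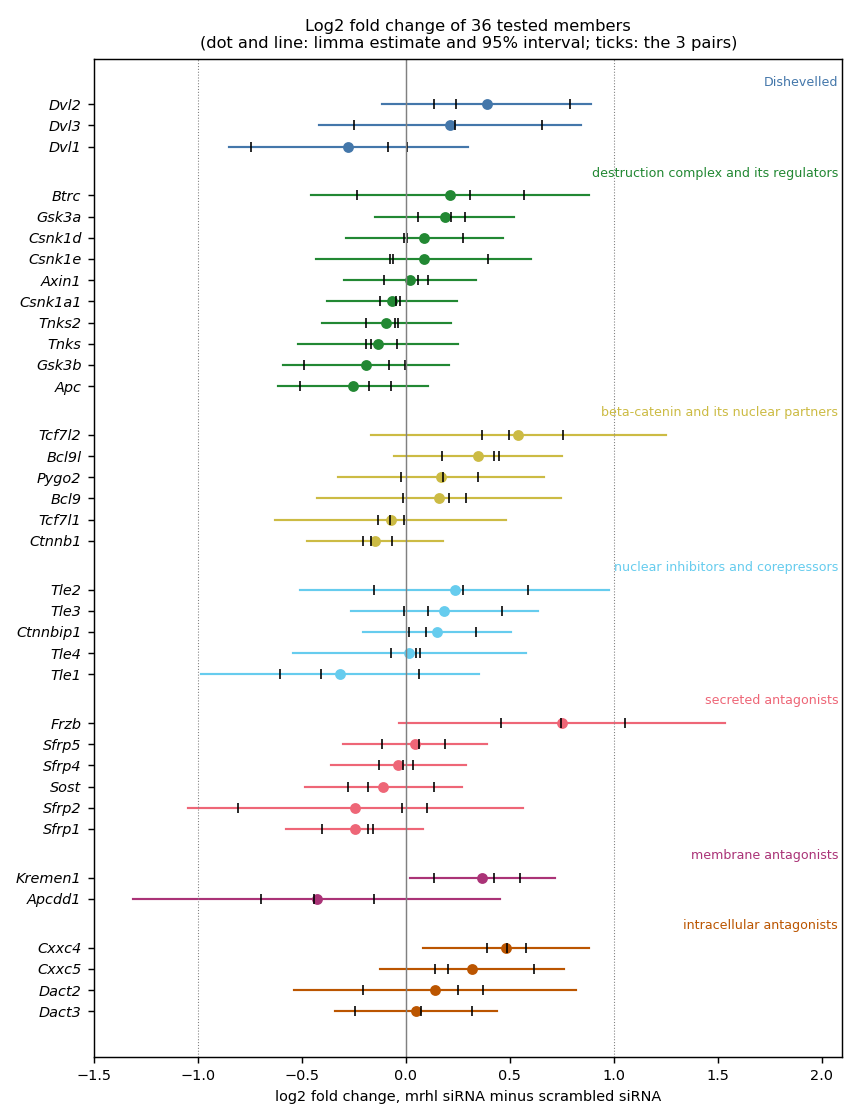
The log2 fold change of each of the 36 tested members (x axis, log2 units) is drawn by role, with the limma estimate as a dot, its 95% interval as a line and the differences of the 3 pairs as black ticks; dotted lines mark 2-fold. The intervals of Kremen1 and Cxxc4 alone lie clear of 0, and Frzb, at 0.75, lies farthest to the right.

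Dishevelled relays the signal from the receptors, and its 3 genes had differences of both signs. Dvl2 had log2 values of 7.19, 6.47 and 7.12 in the control arrays of replicates 1, 2 and 3, and 7.44, 7.26 and 7.26 after mrhl siRNA. Every mrhl array lay above every control array, but control replicate 2 stood well under the other controls. Without that array the difference was 0.16, and under quantile normalization or with array medians set equal the groups overlapped. The difference was 0.39 (SE 0.215, 95% interval -0.11 to 0.89; limma, adjusted p = 0.965). A dimmer Dvl2 probe set, at 5.14, 4.34 and 4.76 against 5.55, 5.25 and 5.09, had a difference of 0.55 (limma, unadjusted p = 0.0494, adjusted p = 0.965), and its groups met, since the highest control lay above the lowest mrhl array. The probe set read for Dvl1 stood at 8.61, 9.22 and 9.14 in the controls and 8.52, 8.48 and 9.14 after mrhl siRNA. Its difference of -0.28 (SE 0.246) came mostly from the pair of number 2, at -0.74, ran from -0.49 without mrhl replicate 3 to -0.16 without mrhl replicate 2 or control replicate 2, and the other Dvl1 probe set had 0.15. The only tested Dvl3 probe set had a difference of 0.21 (SE 0.27).

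The destruction complex showed small differences: over its 10 tested genes they ran from -0.25 for Apc to 0.21 for Btrc, 5 positive and 5 negative, with a median of -0.02. Apc, the scaffold that holds beta-catenin in the complex, had log2 values of 8.19, 8.43 and 8.42 in the controls and 8.12, 7.93 and 8.24 after mrhl siRNA. It was lower in all 3 pairs, while the groups met. The difference was -0.25 (SE 0.154, 95% interval -0.61 to 0.11; limma, adjusted p = 0.965). Without mrhl replicate 2 it was -0.17. Its other probe sets had -0.22, with the groups apart, -0.28 and, for the dimmest, 0.13. Axin1, the scaffold that limits the amount of complex, stood close to level at 0.02 (95% interval -0.30 to 0.34).

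The kinases that mark beta-catenin gave values on both sides of 0. Gsk3a had 9.27, 8.98 and 9.13 in the controls and 9.33, 9.26 and 9.34 after mrhl siRNA, a difference of 0.19 (SE 0.142; limma, adjusted p = 0.965), positive in all pairs and 0.11 without control replicate 2. The Gsk3b probe set read here had 9.06, 9.56 and 9.14 against 9.06, 9.07 and 9.06. After mrhl siRNA its 3 arrays were almost equal, and the difference of -0.19 (SE 0.17; limma, adjusted p = 0.965) came from control replicate 2, without which it was -0.04; without control replicate 1 it was -0.29. A further Gsk3b probe set, 1437001_at, spread over more than 3 log2 units, with 6.30, 8.32 and 8.65 in the controls and 7.29, 8.68 and 9.79 after mrhl siRNA. Within its pairs the differences were 0.99, 0.36 and 1.14, and the mean of 0.83 had an SE of 0.77 without the block (limma, adjusted p = 0.965) and 0.183 with it (limma, adjusted p = 0.487). The 4 other Gsk3b probe sets had differences from -0.10 to 0.17. Casein kinase 1, which primes beta-catenin for Gsk3 and also acts on Dishevelled, is represented by Csnk1a1, Csnk1d and Csnk1e. The probe sets read had -0.07, 0.09 and 0.09, with 95% intervals that reached from -0.43 to 0.60 at the widest. The other tested probe sets ran from -0.13 to 0.52 for Csnk1a1 and from -0.22 to 0.29 for Csnk1d. Those of Csnk1e had 0.17 and 0.17. The Csnk1a1 probe set at 0.52 had a 95% interval of -0.57 to 1.60.

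The rest of the destruction group comprises a ubiquitin ligase subunit and the tankyrases. Btrc, the F-box protein that recognises phosphorylated beta-catenin, had a difference of 0.21 (SE 0.286) in the probe set read, with its pairs at 0.31, 0.57 and -0.24. Its 4 other probe sets lay between -0.21 and 0.28. Tnks and Tnks2, which modify Axin and so speed its removal, had -0.13 and -0.09 in the probe sets read, both lower in all 3 pairs. The other tested probe sets went the other way, with 0.05 and 0.16 for Tnks and 0.11 and 0.05 for Tnks2, the 0.11 being higher in all 3 pairs.

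Beta-catenin itself was read by 3 probe sets, all slightly lower after mrhl siRNA. The one read for Ctnnb1 had log2 values of 12.41, 12.59 and 12.52 in the controls and 12.24, 12.39 and 12.45 after mrhl siRNA. All 3 pairs were lower, by 0.17, 0.21 and 0.07 on the log2 scale, and the groups overlapped. The difference was -0.15 (SE 0.139, 95% interval -0.47 to 0.18; limma, adjusted p = 0.965), or -0.09 without mrhl replicate 1. The second probe set parted the groups, with 11.05, 11.04 and 11.03 against 10.82, 10.94 and 10.95, a difference of -0.14, and the third had -0.04.

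Among the nuclear partners of beta-catenin, the TCF factor Tcf7l2 and the adaptor Bcl9l had the largest differences. Tcf7l2, which carries beta-catenin to DNA, had 9.01, 8.62 and 8.20 in the controls and 9.51, 9.38 and 8.57 after mrhl siRNA. Each mrhl array stood above the control of its own number, by 0.50, 0.76 and 0.37, while across numbers the groups overlapped. The difference was 0.54 (SE 0.303, 95% interval -0.17 to 1.25; limma, adjusted p = 0.965), with an SE of 0.127 under the block (limma, adjusted p = 0.487). It was 0.34 without control replicate 3 and 0.83 without mrhl replicate 3. The other 3 probe sets of Tcf7l2 were also positive, at 0.13, 0.17 and 0.06. Bcl9l, which links beta-catenin to the Pygo proteins, had 7.07, 6.61 and 6.65 against 7.25, 7.04 and 7.10, and only control replicate 1 reached into the mrhl range. Its difference was 0.35 (SE 0.172, 95% interval -0.05 to 0.75; limma, adjusted p = 0.965), and its other probe sets had 0.26 and -0.09. The related Bcl9 and the cofactor Pygo2 had 0.16 (SE 0.251) and 0.17 (SE 0.212), and the TCF factor Tcf7l1, which acts mostly as a repressor, had -0.07 (SE 0.237).

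Of 5 nuclear inhibitors and corepressors, 4 had positive differences and Tle1 a negative one. Ctnnbip1, a small protein that keeps beta-catenin off TCF factors, had 8.45, 8.13 and 8.49 in the controls and 8.54, 8.47 and 8.51 after mrhl siRNA, higher in all pairs. The difference was 0.15 (SE 0.152; limma, adjusted p = 0.965), or 0.04 without control replicate 2. In its other probe set, with 7.18, 6.84 and 7.20 against 7.31, 7.23 and 7.38, the groups did not overlap and the difference was 0.23. The Groucho corepressor Tle1 had 5.57, 5.91 and 6.49 against 5.64, 5.31 and 6.08, a difference of -0.32 (SE 0.286; limma, adjusted p = 0.965) in which pair 1 went the other way, as did its other probe set at 0.12. Single arrays moved the Tle1 difference from -0.07 without control replicate 3 and -0.13 without mrhl replicate 2 to -0.52 without control replicate 1 or mrhl replicate 3. Tle3 was positive in all 4 of its probe sets, from 0.19 in the one read to 0.43, while Tle2 had 0.23 (SE 0.318) and Tle4 0.02 (SE 0.239).

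**Figure D2:**
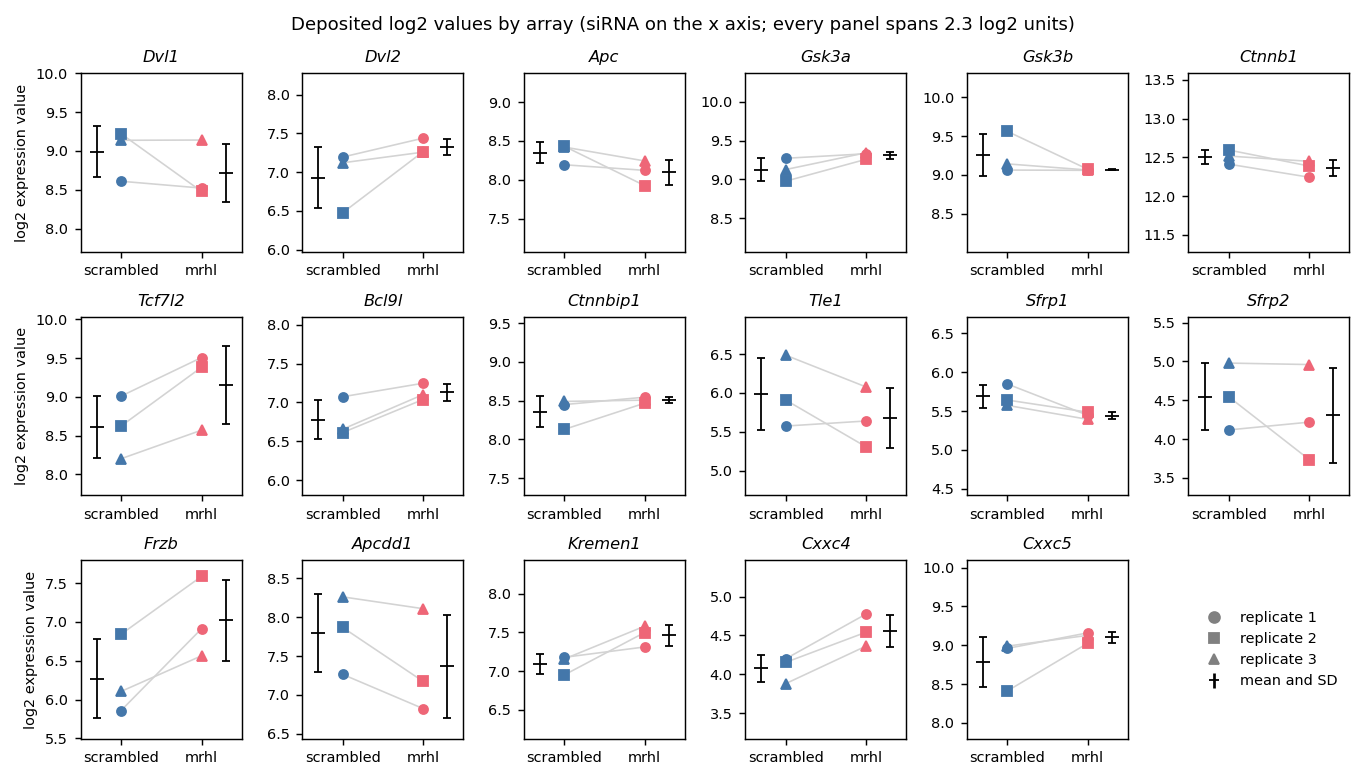
Deposited log2 values (y axis) are drawn by array for the 17 members named by role and p-value, in control cultures (blue) and after mrhl siRNA (red). Marker shapes give the replicate number, grey lines join arrays of equal number, black bars show mean and SD (n = 3), and each panel spans 2.3 log2 units. For Tcf7l2 and Frzb the lines run upward together while the groups overlap, and for Kremen1 and Cxxc4 the groups lie apart.

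Of 10 secreted antagonists, 6 had a tested probe set, 2 with positive and 4 with negative differences. Frzb, a secreted Frizzled-related protein that binds Wnt ligands, had the largest difference of all tested members, the only one of at least 1.5-fold. Its log2 values were 5.86, 6.84 and 6.10 in the controls and 6.91, 7.59 and 6.56 after mrhl siRNA. Control replicate 2 stood above mrhl replicate 3, so the groups overlapped, while the pairs differed by 1.05, 0.75 and 0.46. The difference was 0.75, a 1.69-fold ratio (SE 0.335, 95% interval -0.03 to 1.54; limma, adjusted p = 0.965), with an SE of 0.15 under the block (limma, adjusted p = 0.487). Without mrhl replicate 2 it was 0.47, and without control replicate 2 it was 1.04. The second Frzb probe set, dimmer at means of 4.16 and 4.14, had a difference of -0.01 (SE 0.215, 95% interval -0.52 to 0.49).

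Sfrp1, another protein of that family, gave opposite signs in its probe sets. The probe set read had 5.85, 5.64 and 5.57 in the controls and 5.45, 5.49 and 5.39 after mrhl siRNA. Every mrhl array lay below every control, and the difference was -0.25 (SE 0.141, 95% interval -0.58 to 0.08; limma, adjusted p = 0.965). In a dimmer one, 1428136_at, the values were 3.41, 4.30 and 3.35 against 4.24, 4.75 and 4.46, a difference of 0.80 (SE 0.282; limma, unadjusted p = 0.0244, adjusted p = 0.965). The remaining 2 tested probe sets had 0.01 and 0.03. Sfrp2 had 4.12, 4.55 and 4.98 against 4.22, 3.74 and 4.96, a difference of -0.24 (SE 0.344; limma, adjusted p = 0.965) that came from the pair of number 2. It ran from -0.57 without mrhl replicate 3 and -0.46 without control replicate 1 to -0.03 without control replicate 3 and 0.04 without mrhl replicate 2. In the probe sets read, Sfrp4, Sfrp5 and Sost, the last of which binds the co-receptors, had -0.04, 0.05 and -0.11, with intervals inside -0.49 and 0.39. The other tested Sost probe set had 0.14 (95% interval -0.33 to 0.60).

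The membrane antagonists Kremen1 and Apcdd1 had opposite signs. Kremen1, a receptor for Dickkopf proteins that withdraws the Wnt co-receptor from the surface, had 7.18, 6.95 and 7.16 in the controls and 7.31, 7.50 and 7.58 after mrhl siRNA. The groups did not overlap. The difference was 0.37, a 1.29-fold ratio (SE 0.149, 95% interval 0.02 to 0.72; limma, unadjusted p = 0.0409, adjusted p = 0.965). The other Kremen1 probe sets had 0.07 and 0.39. Apcdd1, a membrane protein that binds Wnt ligands and their co-receptor, had 7.26, 7.87 and 8.26 against 6.82, 7.17 and 8.11. Within pairs it was lower by 0.44, 0.70 and 0.15 on the log2 scale, and the means of the pairs spanned 1.14. The difference was -0.43 (SE 0.377, 95% interval -1.31 to 0.45; limma, adjusted p = 0.965), with an SE of 0.143 under the block (limma, adjusted p = 0.487). It was -0.16 without mrhl replicate 1, -0.20 without control replicate 3, -0.70 without control replicate 1 and -0.80 without mrhl replicate 3. All 5 tested Apcdd1 probe sets were negative, the others from -0.34 to -0.08. The one read and the probe sets 1449070_x_at and 1437604_x_at are of a type whose probes can also match other sequences.

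The intracellular antagonists that bind Dishevelled had positive differences in the probe set read for each of the 4 genes tested, with a median of 0.23, while other probe sets of Cxxc4 and Dact2 were negative. Cxxc4 had the smallest p of all tested members and also the plainest conflict between probe sets. The one read, 1437351_at, had 4.20, 4.15 and 3.88 in the controls and 4.78, 4.54 and 4.36 after mrhl siRNA. Another, 1456811_at, had 3.83, 4.18 and 4.46 against 3.60, 3.63 and 3.54. In each the groups did not overlap, but in opposite directions: the differences were 0.48 (SE 0.17; limma, unadjusted p = 0.0238, adjusted p = 0.965) and -0.57 (SE 0.186; limma, unadjusted p = 0.0175, adjusted p = 0.965). The median over all probe sets was 5.23, above every one of these values, and the mrhl mean of the second, 3.59, was under the filter level of 3.62. No direction can therefore be given for the gene.

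Cxxc5, the relative of Cxxc4, had 8.96, 8.41 and 8.99 in the controls and 9.16, 9.03 and 9.13 after mrhl siRNA. The groups did not overlap, and control replicate 2 stood apart from the other controls; without it the difference was 0.13. The difference was 0.32 (SE 0.19, 95% interval -0.13 to 0.76; limma, adjusted p = 0.965), and the other probe set had 0.21. Dact2 and Dact3, which can turn Dishevelled over, had 0.14 (SE 0.29) and 0.05 (SE 0.166). Their other tested probe sets had -0.15 and 0.50.

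Low signal kept 6 members with a probe set out of the tests, and their values carry no call. Pygo1, a cofactor like Pygo2, ranged from 2.70 to 4.14 over the arrays. Dkk2, which binds the co-receptors, ranged from -1.41 to 2.03, and the ligand-binding Wif1 from -1.25 to 3.16. Sostdc1 stayed between 2.28 and 3.40 in its 2 probe sets. Dact1 ranged from 1.01 in mrhl replicate 2 to 4.06, and its next lowest array was control replicate 2 at 3.45. Dkk3, a divergent member of the Dickkopf family, was singled out after its values were seen. Its probe set 1417312_at had 3.81, 3.78 and 3.71 in the controls, just above the filter level of 3.62, and 2.40, 3.03 and 2.94 after mrhl siRNA, under it. The other Dkk3 probe set had 3.08, 3.14 and 3.77 against 3.47, 3.65 and 3.25. With no filter, the first had a difference of -0.98 (SE 0.205; limma, unadjusted p = 0.00303, adjusted p = 0.978) and the second 0.13. An untested probe set of Sfrp1, 1460187_at, likewise chosen after its values were seen, had 3.25, 0.29 and 2.23 in the controls and -0.85, -0.54 and -1.54 after mrhl siRNA. With no filter its difference was -2.90 (SE 0.757; limma, unadjusted p = 0.00852, adjusted p = 0.978), and each of its values lay under the filter level.

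Several probe sets were tested for 29 of the 36 members, and in 16 of these 29 they had both signs. The widest gaps between probe sets of the same member were 1.05 for Cxxc4, 1.04 for Sfrp1 and 1.02 for Gsk3b. In 13 members all tested probe sets had the same sign, among them Ctnnb1 and Apcdd1 on the lower side and Dvl2, Tcf7l2, Ctnnbip1, Tle3, Kremen1 and Cxxc5 on the higher side. Over the 96 probe sets, 63 were positive and 33 negative. Signs of probe sets, and their agreement within a gene, were not counted beyond the members, so these counts have no share to stand beside. Of the 96, 5 had an unadjusted p under 0.05 in limma, 4 higher and 1 lower, where 3.44% of all probe sets tested had one. With the replicate block 14 had one, 10 higher and 4 lower, where 10.1% of all probe sets tested had one. Where the probes lie along each transcript was not used here.

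**Figure D3:**
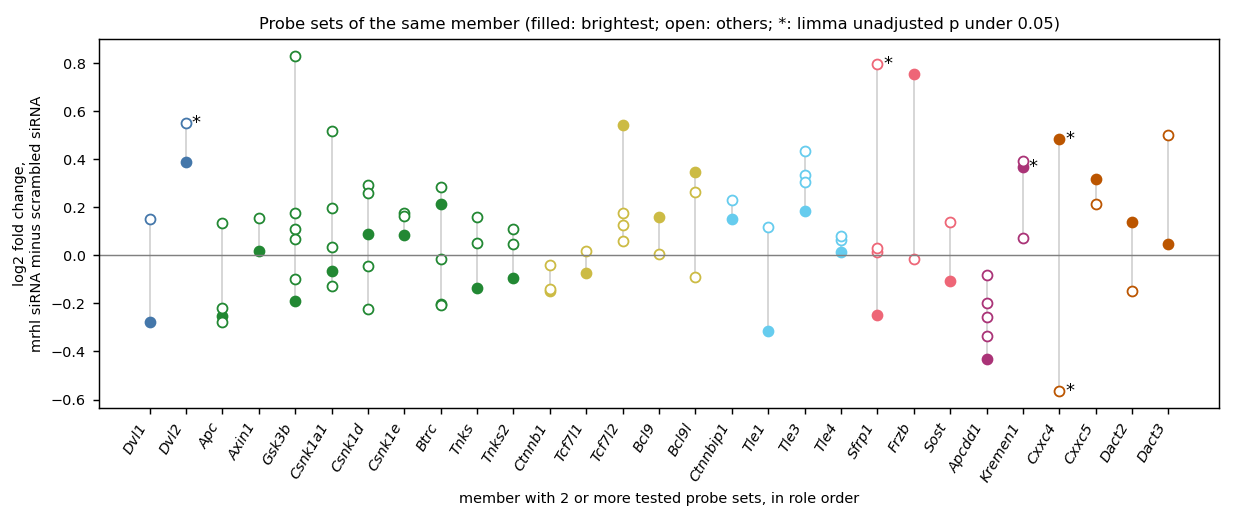
Log2 fold changes (y axis) are drawn for every tested probe set of the 29 members with more than 1, in role order (x axis); filled points are the probe sets read for the gene, open points the others, and stars mark a limma unadjusted p under 0.05. Cxxc4 carries a star on each side of 0, and the points of Ctnnb1 and Apcdd1 all lie below 0.

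Replicate numbers also differed from one another. The range over 3 pair means is not a like measure to a difference of 2 group means, so the sizes were not compared. The means of the pairs spanned 2.42 log2 units in Gsk3b probe set 1437001_at, 1.14 in Apcdd1, 0.88 in Frzb and 0.87 in Tcf7l2. The median difference of the 36 members in pairs 1, 2 and 3 was 0.07, 0.06 and -0.02, with 21, 19 and 17 members positive. Over all tested genes these medians were -0.02, -0.08 and -0.03.

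The other genes of the pathway gave no call either. None of 20 tested ligand and secretion genes passed, with 9 positive and 11 negative, and the smallest p was that of Wnt4, with 0.54 (SE 0.313; limma, adjusted p = 0.965). Wnt4 alone of the 20 had an unadjusted p under 0.05 in limma with the block, where 9.03% of all tested genes had one. Of 20 tested receptors none passed, with 9 positive and 11 negative, and Fzd6 had -0.38 (SE 0.157; limma, adjusted p = 0.965). Its unadjusted p was the only one of the 20 under 0.05, where 2.84% of all tested genes had one. With the block 6 of the 20 had one, 3 higher and 3 lower, where 9.03% of all tested genes had one in either direction. None of the 6 passed the adjustment (limma, adjusted p of 0.487 or more). The co-receptor Lrp5, singled out after its values were seen, had the largest receptor difference, 1.04 (SE 0.543, 95% interval -0.23 to 2.31; limma, adjusted p = 0.965). Of 8 tested feedback targets, genes that beta-catenin and TCF factors switch on, none passed, with 4 positive and 4 negative, and Ccnd1, a cyclin of the G1 phase, had -0.23 (SE 0.228; limma, adjusted p = 0.965).

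**Figure D4:**
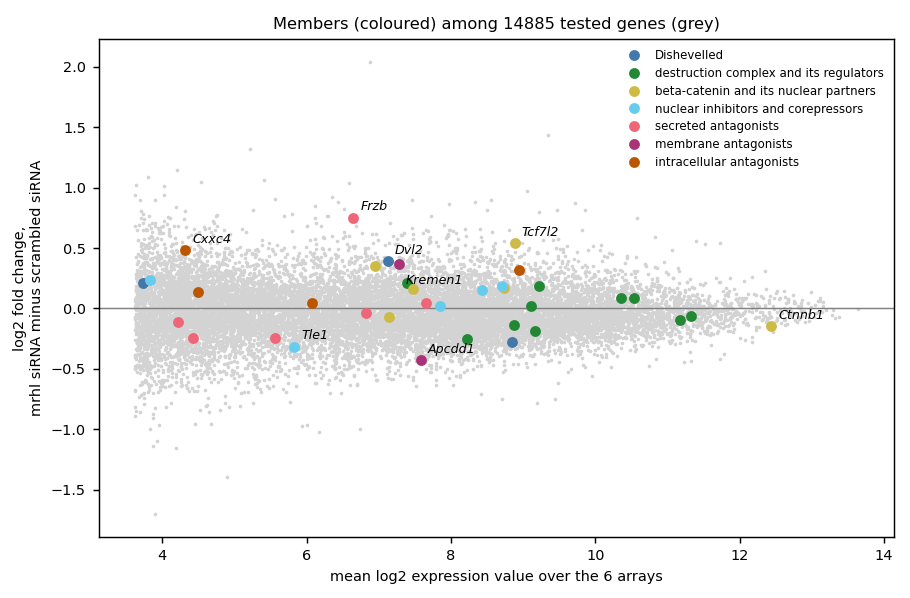
The log2 fold change (y axis) is plotted against the mean log2 value over the 6 arrays (x axis) for 14885 tested genes in grey and the 36 members in colour by role. The members lie within the grey cloud, from -0.43 for Apcdd1 to 0.75 for Frzb.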

How the data were processed

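RNA of 6 GC1-Spg cultures, 3 per group, was measured on 1-colour Affymetrix arrays. The deposited values are log2 expression values, 1 per probe set and array; the scale was read from their range. GCOS and PLIER are named per the submitters' processing notes, while for versions, background correction and normalization the sources used here give nothing. Of 45101 rows, 64 control rows were left out, and 34945 probe sets had exactly 1 symbol in the probe table. The groups were compared with limma 3.58.1 in R 4.3.3 on the 33778 probe sets that passed the filter, with Benjamini-Hochberg adjustment over all of them and a threshold of 0.05. Where several probe sets of a gene were tested, the one brightest on average stood for the gene. A fit with the replicate number as a block stands beside a result where it moved a count or bears on its error; equal numbers correlated at 0.534, 0.201 and 0.567 (limit 0.1) and unequal ones from -0.518 to 0.0684. Array values are given for Ctnnb1, for the 2 or 3 members of each role group with the smallest p, and for members with a further probe set at an unadjusted p under 0.05; Dkk3 and an untested Sfrp1 probe set were added after their values were seen. The members, lists and rules were chosen with earlier results of these data known. The fits were also run on simulated data with planted differences, and the outcome is not reported here. Alternatives were other filters, normalizations and variance models, array weights, the block, mean probe sets and arrays left out; the block with a trended and robust model and the removal of number 1 were added after seeing the data. Figures were drawn with matplotlib 3.10.9.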

Additional observations from a re-analysis of the deposited data

How the results depend on the processing

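No member passed the threshold under any alternative (limma, smallest adjusted p of a member 0.195, in the replicate block with a trended and robust model). Under that model 1 of all 14885 tested genes passed (limma, adjusted p = 0.000758), and under every other setting no gene did. The count at an unadjusted p under 0.05, 2 as reported, was 1 with no filter, 1 with the filter at the 50th percentile, 6 with the replicate block, 5 with array weights, 0 for the mean of a gene's tested probe sets and 9 with the replicate block and a trended and robust model; leaving out arrays gave 0 to 4. Over all tested genes the share counted, 2.84% as reported, was in the same order 3.1%, 3.13%, 9.03%, 5.82%, 3.29% and 14.1%, and 1.7% to 6.49% with arrays left out. The count of members whose groups do not overlap was 5 to 14 with arrays left out, against 5. The share of all tested genes was then 12.9% to 34.7%, against 8.44%. With arrays left out, the median log2 fold change of the members was -0.0292 to 0.1226, against 0.0671. That of all tested genes was -0.0511 to -0.0176, against -0.0397. Of the 270 values of the 17 named members under the alternatives, 4 changed sign: for the mean of a gene's tested probe sets, Gsk3b had 0.15, Sfrp1 0.15 and Cxxc4 -0.0409, where their probe sets differ in sign, and Sfrp2 ran from -0.5705 to 0.0417 with arrays left out, against -0.24. Under quantile normalization and with array medians set equal, 7 members had groups that did not overlap, Dvl2 in neither and Sfrp1 in the second alone, the share of all tested genes was 9.1% and 9.33%, and the signs stayed at 22 positive and 14 negative. The replicate block changed no call after adjustment; besides the members it moved the counts at an unadjusted p under 0.05 of the member probe sets, the receptors and the ligands, as given with them. The number of arrays and dim signal limit what these values can show.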
